A study of Homo sapiens with 8 samples.

Results

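The genes described here are 119 protein-coding genes on the distal part of the long arm of human chromosome 8, the stretch that holds MYC, measured by RNA-seq in an esophageal epithelial line with and without overexpression of the microRNA miR-155-5p. A gene was taken if it started at or beyond 100 Mb of chromosome 8 (GRCh38), was annotated as protein-coding and had at least 1200 reads summed over the 8 libraries. A further 9 genes that met these criteria were left out, namely SQLE, AGO2, LY6D, LY6E, LY6K, LYNX1, SLURP1, PSCA and LYPD2. The deposited table lists 58735 genes, of which 216 are protein-coding genes of this stretch; 88 of the 216 were below the read minimum, including 24 with 0 reads. All 119 genes had enough reads to be tested, among 15135 genes tested in all. The stretch was chosen by its position and by read counts, with the log2 fold changes of its genes already known to be above 0 in the overexpressing libraries, so their common direction is given as a description. Just inside the read minimum were WDYHV1 (1221 reads, log2 fold change 0.07), MED30 (1406 reads, 0.33) and GLI4 (1463 reads, 0.53). Just outside it were DEPTOR (1171 reads, log2 fold change 1.01), ZNF696 (1115 reads, 0.08) and ADCK5 (1111 reads, 0.29).

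MYC encodes a basic helix-loop-helix transcription factor that binds DNA as a heterodimer with MAX and drives genes of ribosome production, nucleotide synthesis and cell growth. In stratified epithelia it is active mainly in the basal, proliferating layer, and it is opposed by the MXD, MNT and MXI1 proteins, which compete for MAX. The distal long arm of chromosome 8 is often gained in squamous and other cancers, and genes of a gained stretch differ in how closely their RNA tracks the number of copies. DNA copy number was not measured here.

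Both groups were EPC2-hTERT cells, a human esophageal epithelial line immortalised with telomerase: 4 control libraries (CTRL) and 4 libraries of cells overexpressing miR-155-5p (miR-155OE). Per the labels, both groups spent 2 days on a membrane of 0.4 µm pore size and a further 5 days at 1.8 mM calcium before their upper surface was exposed to air, a culture in which such cells stratify. The labels do not say how the overexpression was made, whether the line is a clone or a pool, what the control cells carried, or whether the libraries of a group are separate cultures, so every p-value reflects only how far these libraries spread, and that spread may be technical. Total counts per library, in M reads (mega, 1e+06), ran from 33.4 to 52.7 M, with 40.0 ± 8.79 M in the controls and 36.4 ± 3.21 M in the overexpressing cells (mean ± SD, n = 4 each). The miR-155 gene and its host gene MIR155HG had 0 reads in all 8 libraries, where 0 allows up to 3 reads; a library of this kind is not built to hold mature microRNAs, so the overexpression itself could not be checked. All 12 squamous epithelial markers were detected, with KRT5 at 8120 to 11833 CPM (counts scaled to a library of 1 M), and 5 of 8 fibroblast markers (COL1A2, COL3A1, DCN, LUM and THY1) had 0 reads. The fibroblast list summed to 92.8 to 145 CPM in CTRL libraries and to 98.2 to 221 CPM in miR-155OE libraries, nearly all of it COL1A1 (log2 fold change 0.43, edgeR adjusted p = 0.322); PDGFRA and PDGFRB stayed at or under 0.168 and 0.0840 CPM. The part of these levels in the results was not tested. The summed squamous markers ranged from 60581 to 67531 CPM in the controls and from 60431 to 71230 CPM in miR-155OE.

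The distal long arm genes were higher as a block in all 4 miR-155OE libraries, by amounts that differed between the libraries. Relative to the CTRL mean, the median log2 ratio over the 119 genes was 0.35, 0.17, 0.40 and 0.21 in miR-155OE replicates 1 to 4 (mean 0.28 ± 0.11, SD, n = 4) and lay between -0.02 and 0.01 in the 4 CTRL libraries. The groups did not overlap, replicate 3 was the highest and replicate 2 the lowest. Together the 119 genes took 1.25 ± 0.0290% of all reads in the controls and 1.57 ± 0.114% in miR-155OE (mean ± SD, n = 4). In bulk RNA, more copies of a transcript per cell and more cells that carry it cannot be told apart.

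The same order of libraries was present along the rest of the chromosome. The 95 long arm genes that start before 100 Mb, taken with the same read minimum, had medians of 0.30, 0.17, 0.41 and 0.22 in miR-155OE replicates 1 to 4. The 118 short arm genes had medians of the opposite sign, -0.52, -0.20, -0.58 and -0.28, again largest in size in replicate 3 and smallest in replicate 2. The 9518 genes of other chromosomes had medians between -0.01 and 0.01. Single genes showed the order as well: 58% of the 119 genes were highest in replicate 3 among the miR-155OE libraries, against 25.7% of the genes of other chromosomes, and 50.4% were lowest in replicate 2, against 29.7%. Across the 4 miR-155OE libraries, 106 of the 119 genes correlated positively with the median shift, which is a description, since the genes themselves make up that median.

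**Figure D1:**
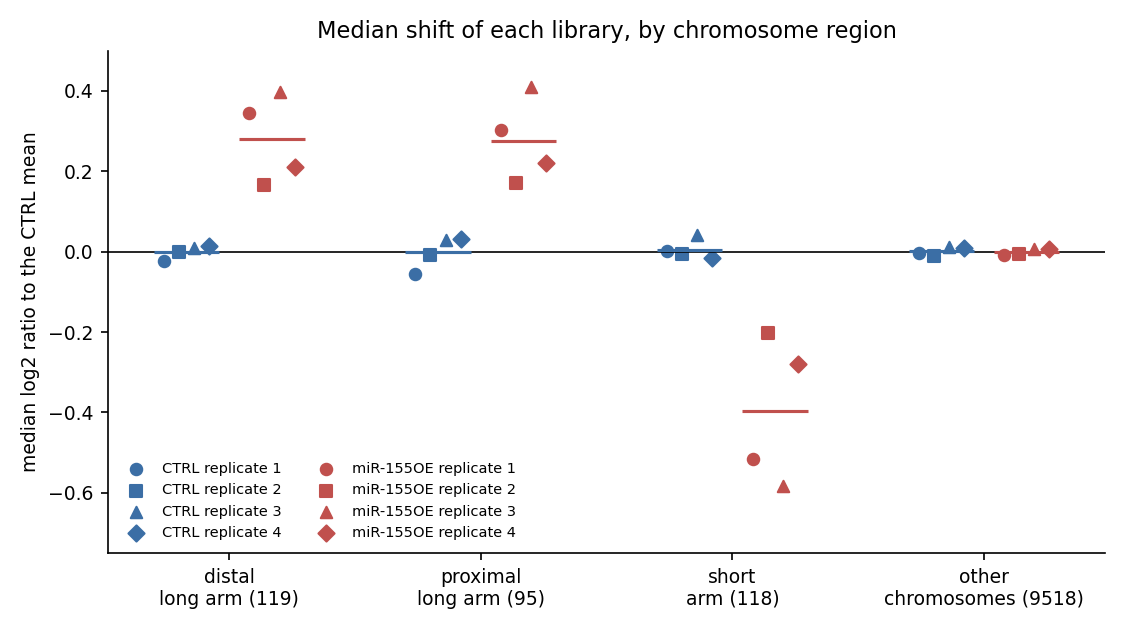
Median log2 ratio to the CTRL mean (vertical axis) for each library in 4 gene groups: the 119 distal long arm genes, 95 proximal long arm genes, 118 short arm genes and 9518 genes of other chromosomes; symbols mark the replicate number and bars the mean of a group. The miR-155OE libraries lie between 0.17 and 0.40 for the distal long arm and between -0.58 and -0.20 for the short arm, with replicate 3 farthest from 0 in both.

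Gene by gene, the difference was small and broad. The median log2 fold change of the 119 genes was 0.29 (a fold of 1.22), with quartiles of 0.17 and 0.40 and a range from -0.97 to 1.12, whereas all tested genes had a median of -0.01 and quartiles of -0.15 and 0.14. Of the 119 genes, 109 (91.6%) were above 0, against 48.7% of all tested genes. By edgeR's quasi-likelihood test at a Benjamini-Hochberg adjusted p of 0.05, 20 of the 119 rose (16.8%), 1 fell and 98 did not pass, against 3.22% of all tested genes called, 2.17% higher and 1.05% lower. With the replicate number as a block, 61 of the 119 rose and 2 fell, against 7.43% and 5.17% of all tested genes, and all 21 calls of the unblocked test were among them. In 53 genes all 4 miR-155OE values lay above all 4 CTRL values, and in MROH6 and ST3GAL1 all lay below, against 6.16% and 5.25% of all tested genes. Between libraries of the same number, 80 genes were higher in miR-155OE in 4 of 4 pairs and MROH6 and ST3GAL1 in 0 of 4. No share of all tested genes is given for these pair counts, which are a description only. Without miR-155OE replicate 2, the library with the smallest shift, 48 of the 119 genes rose, and without CTRL replicate 1, CTRL replicate 3 or miR-155OE replicate 1 only 3 did. Without CTRL replicate 2 or miR-155OE replicate 3, 6 rose. The calls over all genes moved in the same direction, from 488 to 1274 without miR-155OE replicate 2, to 156, 203 and 129 without CTRL replicates 1, 2 and 3, and to 125 and 173 without miR-155OE replicates 1 and 3.

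**Figure D2:**
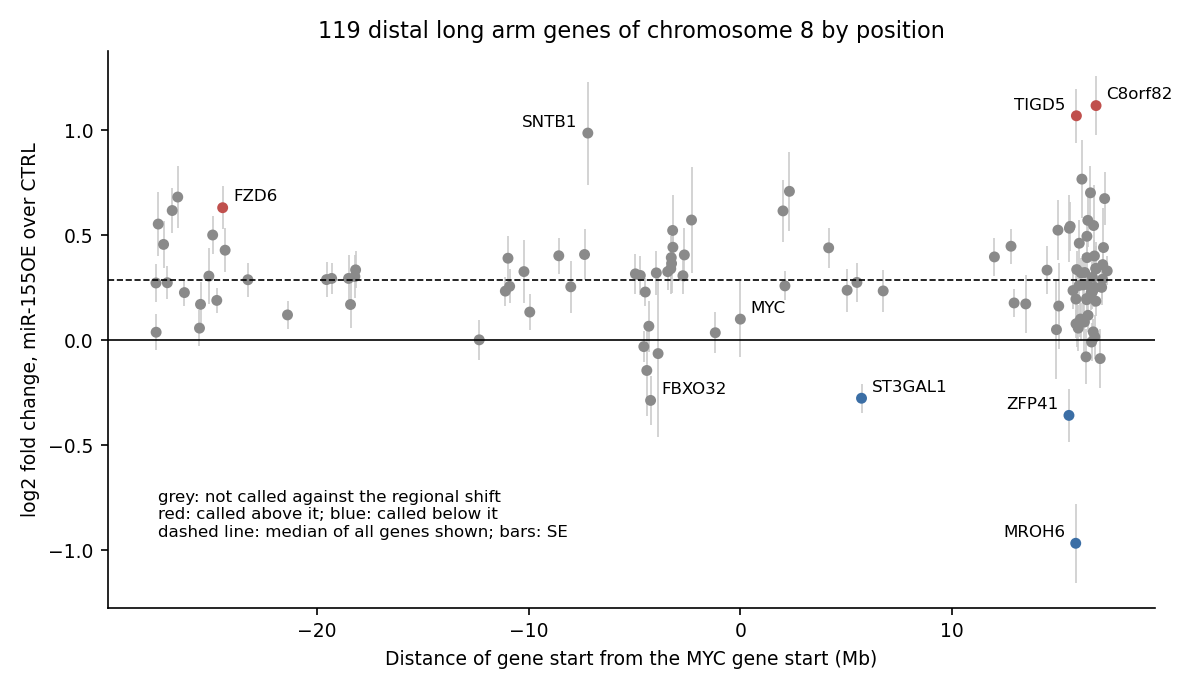
Log2 fold change of each of the 119 genes (vertical axis, bars ± SE) against the distance of its start from the start of MYC in Mb (horizontal axis), with a dashed line at the median of 0.29. Most genes along the whole stretch lie above 0; TIGD5 and C8orf82 reach 1.07 and 1.12, and MROH6 lies at -0.97.

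Whether a gene followed, exceeded or stayed below the regional rise was tested by taking the median shift of the 119 genes out of each library before the edgeR comparison, so that a value of 0 means a gene moved with its region. On that scale 3 of the 119 genes were above the region, 3 were below it and 113 did not pass in either direction. In the same fit 3.06% of all tested genes were called in either direction. Only the 119 genes had a shift taken out. For all other genes, the shares in this paragraph count plain differences from CTRL, not departures from a shift. With the replicate block, 12 were above and 13 below, against 12.3% of all tested genes called. The genes it added above were ASAP1, TRIB1, GSDMC, YWHAZ, ZNF706, BOP1, SNTB1, AZIN1 and ZNF16, and those it added below were FBXO32, OPLAH, DGAT1, TRPS1, FAM83A, CPSF1, ZNF251, FAM84B, ZNF623 and KIFC2. Leaving out miR-155OE replicate 2 gave 9 above and 8 below, and leaving out miR-155OE replicate 1 gave 2 above and 1 below. At an unadjusted p of 0.05, 17 were higher and 18 lower, against 10.3% and 8.77% of all tested genes in the same fit. The 95% interval of the plain log2 fold change held the regional median in 88 genes, lay above it in 13 and below it in 18, and 68 genes had an interval that held the median and lay above 0. A further view of spread is that 64 genes had a log2 fold change within 0.15 of the median, and that the SD of the log2 fold change across the 119 genes was 0.27, next to 0.26 across the genes of other chromosomes.

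**Figure D3:**
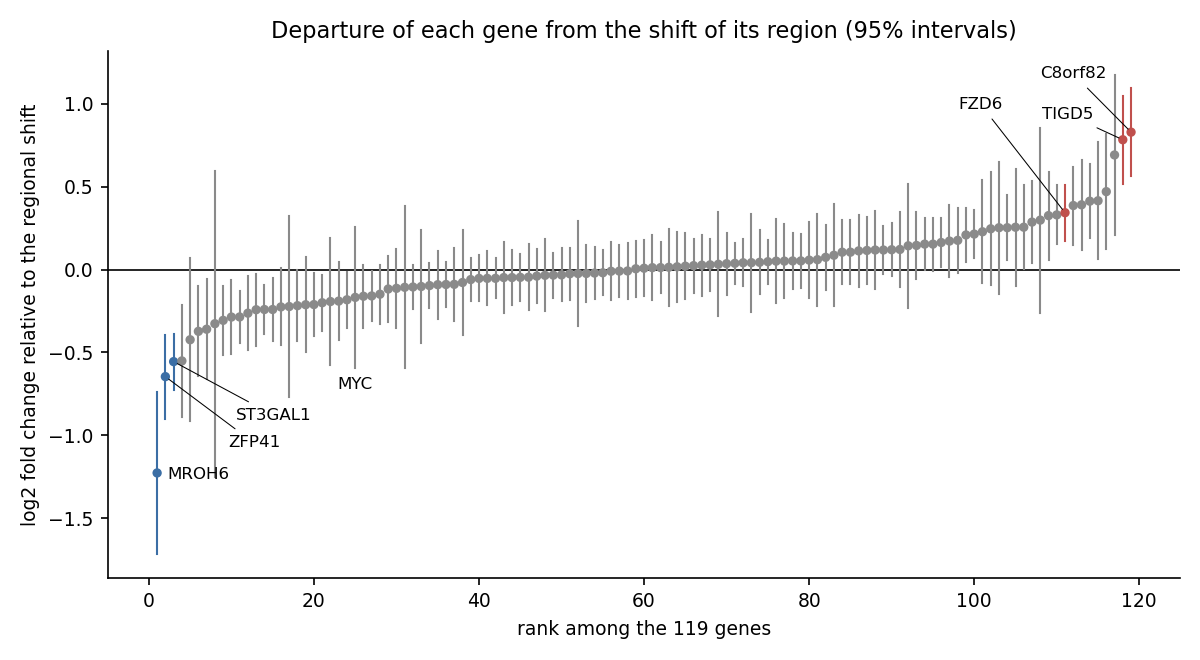
The 119 genes ranked by their log2 fold change relative to the regional shift (vertical axis), with 95% intervals; red and blue mark the genes called above and below the region. Most intervals cross 0, C8orf82 (0.83) and TIGD5 (0.78) end the upper side, and MROH6 (-1.23) ends the lower side.

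C8orf82 (chromosome 8, 144525733 to 144529132, minus strand), an uncharacterised gene placed here in the mitochondrial list, was the gene farthest above the region. It had 10.2, 11.1, 9.55 and 14.1 CPM in CTRL replicates 1 to 4 and 25.4, 21.2, 29 and 22 CPM in miR-155OE. Every miR-155OE library lay above every CTRL library. The log2 fold change was 1.12 (SE 0.14, edgeR adjusted p = 0.0038), and relative to the region it was 0.83 (SE 0.12, edgeR adjusted p = 0.00746). That departure passed in all 8 comparisons that left out a library.

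TIGD5 (chromosome 8, 143597835 to 143603224, plus strand), which derives from a transposase and encodes a predicted DNA-binding protein, had 8.85, 8.97, 7.56 and 8.54 CPM in the controls and 16.4, 18.5, 21.8 and 14.3 CPM in miR-155OE. The groups did not overlap, and replicate 3 held both the lowest CTRL and the highest miR-155OE value. Its log2 fold change was 1.07 (SE 0.13, edgeR adjusted p = 0.00316), and 0.78 relative to the region (SE 0.12, edgeR adjusted p = 0.0104), a call that also held in each of the 8 comparisons that left out a library. The span of TIGD5 overlaps that of EEF1D on the opposite strand over 1707 bases. EEF1D is a far more abundant gene, with a log2 fold change of 0.08. Spans run from gene start to gene end and include introns, so how much counted sequence is shared was not determined. Because no strand setting is given, reads of any shared exon bases cannot be assigned to either gene.

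FZD6 (chromosome 8, 103298433 to 103332866, plus strand), a receptor for Wnt ligands that acts in planar cell polarity, had 137, 144, 157 and 139 CPM in the controls and 222, 190, 268 and 213 CPM in miR-155OE. The groups did not overlap, with miR-155OE replicate 3 the highest and replicate 2 the lowest of their group, as in the region as a whole. The log2 fold change was 0.63 (SE 0.10, edgeR adjusted p = 0.0123). Relative to the region it was 0.34 (SE 0.08, edgeR adjusted p = 0.0425, with the block 0.00515). That departure was past the threshold in only 1 of the 8 comparisons that left out a library, the one without miR-155OE replicate 2 (edgeR adjusted p = 0.0199). Without CTRL replicates 1, 2, 3 or 4 it was 0.109, 0.0932, 0.0665 and 0.0909, and without miR-155OE replicates 1, 3 or 4 it was 0.0910, 0.106 and 0.0773. The span of FZD6 overlaps that of the antisense gene BAALC-AS1 (log2 fold change 1.00) over 340 bases.

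MROH6 (chromosome 8, 143566187 to 143572971, minus strand), a gene of the maestro heat-like repeat family, was the only one of the 119 genes that fell in the plain test; without CTRL replicates 1, 2 or 3 or miR-155OE replicates 1 or 4, 0 genes fell. Its level was 29.6, 32.2, 25 and 26.6 CPM in the controls and 14.5, 20.2, 9.61 and 13.7 CPM in miR-155OE. Every miR-155OE value lay below every CTRL value, and replicate 3, where the region was highest, had the lowest value. The log2 fold change was -0.97 (SE 0.19, edgeR adjusted p = 0.0261). Relative to the region it was -1.23 (SE 0.22, edgeR adjusted p = 0.0203, with the block 0.00124). The departure from the region lost its call without CTRL replicates 1, 2 or 3 (edgeR adjusted p = 0.0600, 0.0587 and 0.0518) or miR-155OE replicate 1 (edgeR adjusted p = 0.0703), with log2 values that stayed between -1.48 and -1.04 over the 8 comparisons.

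ST3GAL1 (chromosome 8, 133454848 to 133571940, minus strand), a sialyltransferase that caps O-linked glycans, had 22.8, 22.5, 23.5 and 22.1 CPM in the controls and 20.1, 18.9, 18.4 and 17.6 CPM in miR-155OE. The values of each group were close together and the groups did not overlap. In the plain comparison the log2 fold change of -0.28 did not pass (SE 0.07, edgeR adjusted p = 0.0574), whereas with the replicate block it did (edgeR adjusted p = 0.0258). Relative to the region it was -0.56 (SE 0.08, edgeR adjusted p = 0.00599), a call that was kept in all 8 comparisons that left out a library.

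ZFP41 (chromosome 8, 143246821 to 143262705, plus strand), a zinc finger protein gene, had 13.4, 10.8, 10.3 and 10.7 CPM in the controls and 8.83, 8.17, 10.5 and 7.69 CPM in miR-155OE. The groups overlapped through miR-155OE replicate 3 and CTRL replicate 3. The plain log2 fold change of -0.36 did not pass (SE 0.13, edgeR adjusted p = 0.15). Relative to the region the value was -0.65 (SE 0.11, edgeR adjusted p = 0.0188, with the block 0.00712). Without miR-155OE replicate 1 the adjusted p of that departure was 0.0680 by edgeR.

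**Figure D4:**
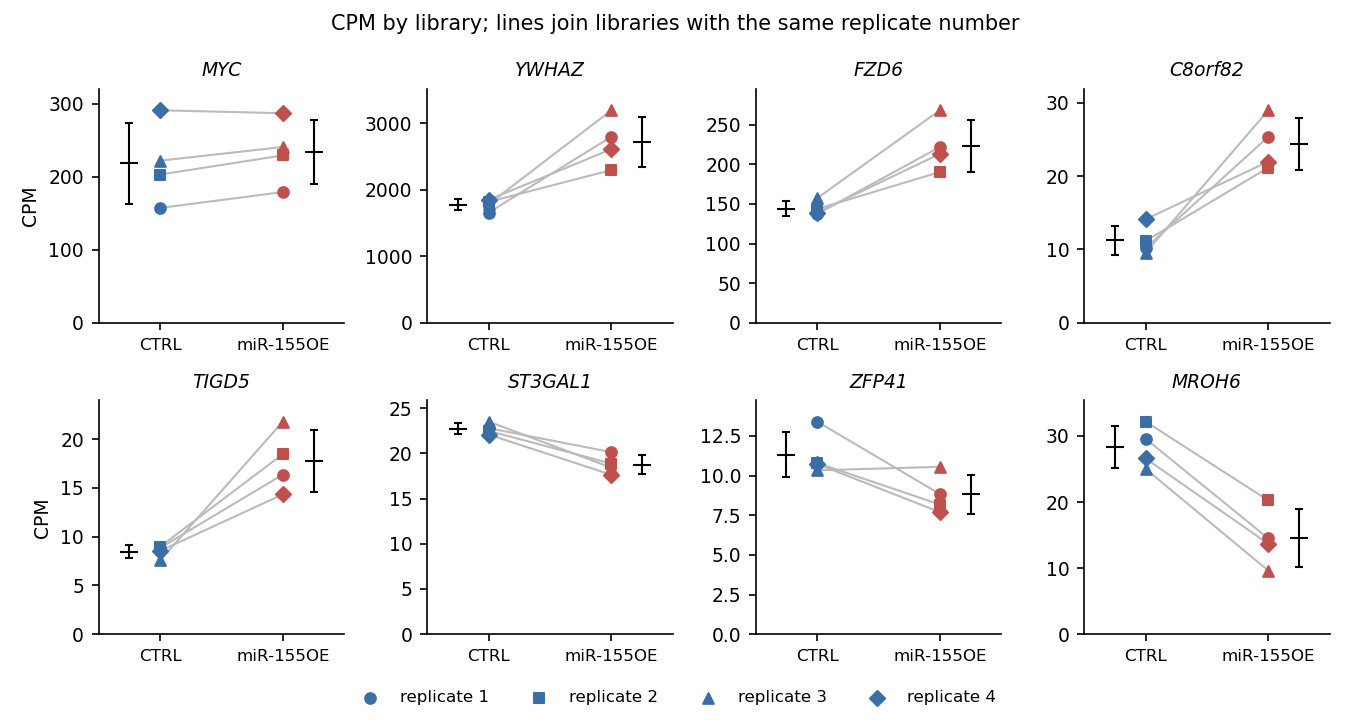
CPM by library (vertical axes from 0) in CTRL (blue) and miR-155OE (red) for 8 genes, with symbols for the replicate number, lines joining equal numbers, and black bars for the mean ± SD (n = 4). MYC overlaps between the groups, YWHAZ, FZD6, C8orf82 and TIGD5 are higher in every miR-155OE library, and ST3GAL1 and MROH6 are lower in every one.

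MYC itself was not among the genes that rose. Its level (chromosome 8, 127735434 to 127741434, plus strand) was 157, 203, 222 and 291 CPM in CTRL replicates 1 to 4 and 179, 229, 241 and 287 CPM in miR-155OE replicates 1 to 4. The groups overlapped almost completely, and the spread between libraries of 1 group (218 ± 55.5 CPM in the controls and 234 ± 44.3 CPM in miR-155OE, mean ± SD, n = 4) was larger than the difference between the means. The log2 fold change was 0.10 (SE 0.18, 95% interval -0.30 to 0.50, edgeR adjusted p = 0.818), and relative to the region it was -0.17 (SE 0.19, 95% interval -0.59 to 0.26, edgeR adjusted p = 0.700). The first interval holds both 0 and the regional median of 0.29, and the second holds 0, so in the unblocked fit MYC could not be told apart from a gene that followed the region or from one that did not change. Within pairs of equal number the log2 differences were 0.19, 0.18, 0.12 and -0.02, next to 0.36, 0.18, 0.40 and 0.19 for the median of the 119 genes. With the replicate block the intervals were narrower: the log2 fold change was 0.11 (SE 0.06, 95% interval -0.01 to 0.24, edgeR adjusted p = 0.226), an interval that ends below the regional median, and the value relative to the region was -0.16 (SE 0.06, 95% interval -0.30 to -0.03, edgeR adjusted p = 0.112). Neither passed the threshold. Without CTRL replicate 1 or miR-155OE replicate 4 the sign of the plain log2 fold change turned, to -0.025 and -0.0089.

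The nearest neighbours of MYC had log2 fold changes from 0.04 to 0.71. FAM84B, which starts 1.18 Mb before MYC, had a log2 fold change of 0.04 (edgeR adjusted p = 0.888), at 76.3 ± 8.24 CPM in the controls and 78.2 ± 8.44 CPM in miR-155OE. TRIB1, a pseudokinase that brings substrates to a ubiquitin ligase and starts 2.31 Mb before MYC, had 30.9, 36.6, 48.5 and 71.1 CPM in the controls and 53.8, 55.3, 77.2 and 92.0 CPM in miR-155OE. TRIB1 was higher within every pair although its groups overlapped, and its log2 fold change of 0.57 did not pass without the block (SE 0.25, edgeR adjusted p = 0.249) and passed with it (edgeR adjusted p = 0.00191). On the other side, GSDMC, a gasdermin with a pore-forming domain, starts 2.01 Mb after MYC and differed by 0.62 on the log2 scale (SE 0.15, edgeR adjusted p = 0.0502; with the block 0.00304). FAM49B, which starts 2.10 Mb after MYC and encodes a regulator of RAC1 and actin, lay with the region: it had 27.5, 31.4, 29.6 and 28.2 CPM in the controls and 35.5, 35.0, 36.5 and 32.7 CPM in miR-155OE, without overlap. Its log2 difference was 0.26 (SE 0.07, edgeR adjusted p = 0.0672; with the block 0.0260), and relative to the region it was -0.02 (SE 0.07, edgeR adjusted p = 0.910). ASAP1, which activates hydrolysis of GTP by ARF proteins at membranes and starts 2.32 Mb after MYC, had 0.71 (SE 0.19, edgeR adjusted p = 0.0663; with the block 0.00273).

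Over the 8 libraries, the genes of the stretch whose log2 CPM was most like that of MYC were TRIB1 (Pearson r 0.85, Spearman rho 0.86), KLF10 (0.76 and 0.81), FAM84B (0.75 and 0.81), KIFC2 (0.67 and 0.76) and SPAG1 (0.63 and 0.60). These correlations are a description over libraries in which MYC climbed with replicate number in both groups. It went from 157 to 291 CPM in CTRL and from 179 to 287 CPM in miR-155OE. The parts of depth, group and replicate number in the correlations were not tested. KLF10, a zinc finger repressor induced by TGF-beta, had 214, 238, 229 and 315 CPM in the controls and 290, 274, 295 and 372 CPM in miR-155OE. In KLF10, as in MYC, replicate 4 was the highest library of each group.

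The most abundant of the 119 genes per length belong to translation and signalling. RPL8, a protein of the large ribosomal subunit, stood at 426 CPM per kb of transcript in CTRL and 507 in miR-155OE, PABPC1, the cytoplasmic poly(A)-binding protein, at 341 and 412, and YWHAZ, a phosphoserine-binding adaptor, at 208 and 318. PABPC1 had 1697, 1621, 1591 and 1567 CPM in the controls and 2059, 1858, 2074 and 1833 CPM in miR-155OE, without overlap. Its log2 fold change of 0.27 was next to the regional median (relative value -0.01, SE 0.07, edgeR adjusted p = 0.963). RPL8, at 0.25, lay beside it (relative value -0.03, SE 0.07, edgeR adjusted p = 0.857). YWHAZ had 1657, 1819, 1782 and 1847 CPM in the controls and 2797, 2296, 3194 and 2611 CPM in miR-155OE, where every library was higher, replicate 3 most and replicate 2 least. It rose by 0.62 on the log2 scale (SE 0.11, edgeR adjusted p = 0.0155), and its value relative to the region, 0.33 (SE 0.08), passed with the block (edgeR adjusted p = 0.0176) and not without it (edgeR adjusted p = 0.0539). RPL8, PABPC1 and YWHAZ have processed pseudogenes elsewhere in the genome, and how reads that match several places were counted is not given in the sources used here.

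Counts of calls by role list are read against 2.17% of all tested genes called higher and 16.8% of the 119 genes, or 7.43% and 51.3% with the block. Among the 26 genes of transcription and chromatin the median log2 fold change was 0.25, and 4 rose and 0 fell. The 4 were TIGD5, ZNF706, ZNF16 and CHRAC1, the last a histone-fold subunit of a chromatin remodelling complex. ZNF706 (0.68, edgeR adjusted p = 0.0402) had 61.3, 66.3, 70.2 and 76.5 CPM in the controls and 114, 75.3, 133 and 117 CPM in miR-155OE, where replicate 2 stayed within the CTRL range. ZNF16 (0.67, edgeR adjusted p = 0.0246) was at 5.88 ± 0.351 CPM in the controls and 9.39 ± 1.54 CPM in miR-155OE (mean ± SD, n = 4). GRHL2, a regulator of epithelial identity, had 0.23, and HSF1, the heat shock factor, 0.22. TRPS1, a GATA-type repressor, had 27.7 ± 1.12 CPM in the controls and 27.7 ± 3.71 CPM in miR-155OE, a log2 fold change of 0.00. Its value relative to the region, -0.29, passed with the block (edgeR adjusted p = 0.0287) and not without it (edgeR adjusted p = 0.0569). ZNF251, a zinc finger protein gene, had 7.19, 7.38, 9.93 and 9.21 CPM in the controls and 7.84, 6.91, 9.46 and 7.55 CPM in miR-155OE, with overlapping groups and a log2 fold change of -0.09 (edgeR adjusted p = 0.787). Relative to the region ZNF251 had -0.37 (SE 0.12, edgeR adjusted p = 0.132, with the block 0.0342). With the block, 13 of the 26 rose.

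In RNA processing and translation, the median of 15 genes was 0.29, and 2 rose and 0 fell, with 9 risen under the block. BOP1, which is needed for maturation of the large ribosomal subunit, had 19.6, 20.2, 19.2 and 24.1 CPM in the controls and 32.7, 28.4, 42.6 and 31.4 CPM in miR-155OE, without overlap. Its log2 fold change was 0.70 (SE 0.13, edgeR adjusted p = 0.0207), and relative to the region 0.41 (SE 0.10, edgeR adjusted p = 0.0550, with the block 0.0207). The span of BOP1 overlaps that of SCX on the opposite strand over 1922 bases. PUF60, a splicing factor, was the other gene that rose, by 0.32 (edgeR adjusted p = 0.0403). At the lower end, CPSF1, the largest subunit of the complex that recognises polyadenylation signals, had 43.8 ± 1.79 CPM in the controls and 45.0 ± 2.23 CPM in miR-155OE, a log2 difference of 0.04 (SE 0.06, edgeR adjusted p = 0.790). The translation initiation subunits EIF3E and EIF3H lay at 0.29 and 0.23.

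The 5 genes of cohesion, replication and repair had a median of 0.26. TOP1MT, the mitochondrial topoisomerase, was the 1 that rose, from 11 ± 0.390 to 16.0 ± 2.73 CPM (0.54, SE 0.12, edgeR adjusted p = 0.0368), and RAD21, a subunit of cohesin, had 0.26. ATAD2, a bromodomain ATPase known as a cofactor of MYC, was among the least abundant, at 5.06 ± 0.939 CPM in the controls and 4.59 ± 1.30 CPM in miR-155OE, and its log2 fold change was -0.14 (SE 0.22, edgeR adjusted p = 0.774). Of the 5 genes, 3 rose under the block.

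Of the 11 genes of ubiquitin and protein turnover, with a median of 0.36, 0 passed in either direction by edgeR. At an unadjusted p of 0.05, 8 were higher and 1 lower, where 2925 of the 15135 tested genes passed in either direction. With the block 6 rose. By DESeq2 5 rose, where it called 42% of the genes taken from the stretch higher and 1200 of all genes in either direction. FBXO32, a muscle atrophy F-box protein, had 37.9, 37.1, 36.4 and 37.0 CPM in the controls and 28.8, 38.2, 24.3 and 30.3 CPM in miR-155OE. The single miR-155OE library above the controls was replicate 2, the one with the smallest regional shift, and the lowest was replicate 3, the one with the largest. The log2 fold change of -0.29 did not pass (SE 0.12, edgeR adjusted p = 0.208), and relative to the region the value was -0.55 (SE 0.15, edgeR adjusted p = 0.0780, with the block 0.0151).

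The 18 genes of mitochondria and metabolism had a median of 0.28, with 4 risen, 0 fallen and 14 not passed. Besides C8orf82 and TOP1MT these were CYC1, a subunit of the cytochrome bc complex (50.7 ± 3.89 CPM in the controls, 71.4 ± 8.53 CPM in miR-155OE, log2 fold change 0.49, edgeR adjusted p = 0.0246), and AZIN1. AZIN1, which blocks the antizyme that degrades ornithine decarboxylase, had 123, 134, 129 and 130 CPM in the controls and 183, 156, 213 and 177 CPM in miR-155OE. The AZIN1 groups were well apart, and its log2 fold change was 0.50 (SE 0.09, edgeR adjusted p = 0.0209). DGAT1, the enzyme of the last step of triglyceride synthesis, and OPLAH, an enzyme of glutathione turnover, had log2 fold changes of -0.01 and -0.08. Both lay below the region under the block (edgeR adjusted p = 0.0285 and 0.0246) and not without it (edgeR adjusted p = 0.151 and 0.183). Of the 18 genes, 7 rose and 1 fell under the block.

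Membrane traffic gave a median of 0.31 over 13 genes, with 3 risen and 10 risen under the block. These 3 were MAL2, a membrane protein of apical transport (0.40, edgeR adjusted p = 0.0358), EFR3A, which anchors a phosphatidylinositol kinase at the plasma membrane (0.44, edgeR adjusted p = 0.0374), and TRAPPC9, a subunit of a tethering complex (0.40, edgeR adjusted p = 0.0433). MAL2 is abundant in these cells, at 468 ± 33.4 CPM in the controls and 619 ± 51.8 CPM in miR-155OE (mean ± SD, n = 4). KIFC2, a kinesin, had 52.6 ± 7.97 CPM in the controls and 53.2 ± 3.60 CPM in miR-155OE (log2 fold change 0.02, SE 0.10, edgeR adjusted p = 0.955).

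In the epithelial list of cytoskeleton, adhesion, cell death and signalling, YWHAZ and FZD6 rose, the other 13 of the 15 genes did not pass, and the median was 0.26. EPPK1, a plakin that binds keratin filaments, had 90.9, 98.8, 74.4 and 114 CPM in the controls and 203, 131, 191 and 117 CPM in miR-155OE. The EPPK1 groups did not overlap, but miR-155OE replicate 4 lay just above the highest control; the log2 fold change of 0.77 did not pass (SE 0.19, edgeR adjusted p = 0.0522) and passed with the block (edgeR adjusted p = 0.0323). PLEC, another plakin, which links keratin filaments to hemidesmosomes, lay at 0.26, and SCRIB, a polarity protein, at 0.10. FAM83A, a gene linked to growth factor signalling, had 250 ± 19.5 CPM in the controls and 244 ± 12.1 CPM in miR-155OE (log2 fold change -0.03, SE 0.07, edgeR adjusted p = 0.868). Of the 15 genes, 7 rose under the block.

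The other 22 genes, which were in no role list, had a median of 0.33, with 5 risen and MROH6 fallen. The 5 were MTSS1 (0.44), IQANK1 (0.46), HGH1 (0.57), CYHR1 (0.40) and C8orf33 (0.33). SNTB1, a syntrophin of the dystrophin complex, had 4.47, 6.89, 5.78 and 9.60 CPM in the controls and 14, 8.98, 17.6 and 12.3 CPM in miR-155OE. The SNTB1 groups overlapped through replicate 4 of CTRL and replicate 2 of miR-155OE, and its log2 fold change of 0.99 did not pass (SE 0.25, edgeR adjusted p = 0.0563) and passed with the block (edgeR adjusted p = 0.0220). The span of SNTB1 overlaps that of MTBP on the opposite strand over 6389 bases, and the log2 fold change of MTBP was 0.84. Of the 22 genes, 10 rose and 1 fell under the block.

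**Figure D5:**
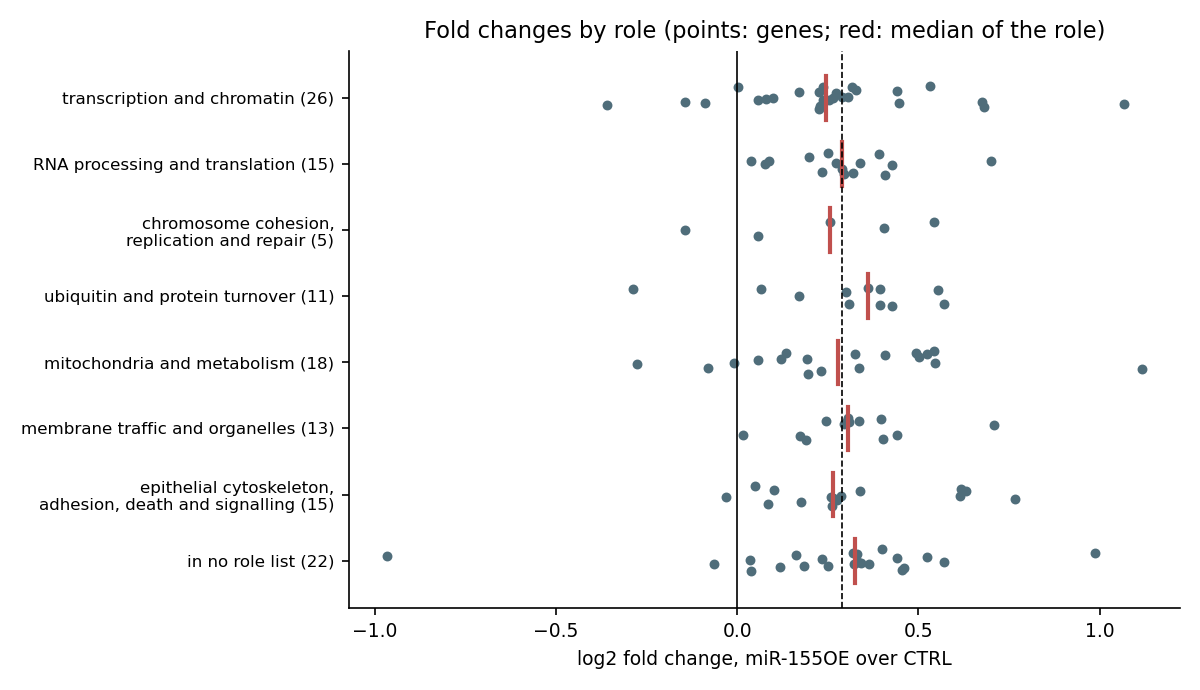
Log2 fold change (horizontal axis) of each of the 119 genes in 7 role lists and the group in no list, with a red bar at the median of each group and a dashed line at the median of all 119, 0.29; 6 genes stand in 2 lists, and vertical scatter within a row has no meaning. The medians lie between 0.25 and 0.36, and each row spreads widely around its own.

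Position along the stretch, expression level and overlap with other genes made little difference to the median. In steps of 10 Mb from 100 Mb on, the median log2 fold change was 0.29 (23 genes), 0.25 (8 genes), 0.32 (24 genes), 0.27 (7 genes) and 0.26 (57 genes). In each step the 4 miR-155OE libraries had a median above that of every CTRL library. The 60 more abundant genes had a median of 0.27 and an SD of 0.18, and the 59 less abundant ones a median of 0.30 and an SD of 0.33. The 81 genes that overlap no other gene of at least 300 reads had a median of 0.27, and the 38 that do had 0.30.

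Because miR-155-5p was overexpressed, the 3′ UTRs of the genes were searched for its seed match. The mature sequence from RefSeq is shown with bases 2 to 8, the seed that pairs with target sites, in capitals.
hsa-miR-155-5p: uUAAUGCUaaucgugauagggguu
Sites were AGCATTA, the complement of bases 2 to 8, or GCATTAA, the complement of bases 2 to 7 followed by A, on the transcript strand of the longest annotated 3′ UTR (GENCODE release 29, GRCh38); the motifs overlap by 6 bases and overlapping matches were counted as 1 site. At least 1 site was present in 22 of the 119 genes (18.5%), next to 18.6% of the 12534 tested genes with a 3′ UTR. The 22 genes had a median log2 fold change of 0.27 and the 97 others 0.29, and relative to the region the medians were -0.02 and 0.01. Genes with a site had longer 3′ UTRs (median 2750 bases) than the 97 others (1030 bases). Of the genes that lay below the region, ZFP41 had 1 site and ST3GAL1 and MROH6 had 0. Of the 13 below it with the block 4 had a site (ZFP41, TRPS1, KIFC2 and ZNF623), and of the 12 above it with the block 3 had one. MYC had 0. TRPS1 had 2 sites and a log2 fold change of 0.00, whereas TMEM65, an inner mitochondrial membrane protein gene, had 4 sites and 0.33 (35.5 ± 1.59 CPM in the controls, 44.5 ± 5.08 CPM in miR-155OE), and YWHAZ had 1 site and 0.62.

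Genes of the MYC pathway outside chromosome 8 were read from lists of its partners, activated genes and repressed genes. Counts of calls are read against 2.17% of all tested genes called higher and 1.05% called lower by edgeR. Counts at an unadjusted p of 0.05 are read against 2925 of the 15135 tested genes, in either direction. Of 9 partners and antagonists tested 0 rose and 0 fell by edgeR, with 1 higher and 0 lower at an unadjusted p of 0.05 and a median log2 fold change of -0.02. MAX, the partner of MYC, had 49.0 ± 5.93 CPM in the controls and 52.1 ± 7.62 CPM in miR-155OE (0.09, edgeR adjusted p = 0.735). MXD4, an antagonist that competes for MAX, had 0.33 (edgeR adjusted p = 0.116, with the block 0.00704), MXI1 had 0.14 and MNT had -0.16. Of 41 activated genes tested, 0 rose, 1 fell and 40 did not pass, with 6 higher and 2 lower at an unadjusted p of 0.05 and a median of 0.11. That 1 was TERT, at 578 ± 82.2 CPM in the controls and 388 ± 52.7 CPM in miR-155OE (-0.58, SE 0.12, edgeR adjusted p = 0.0360); the line carries a TERT transgene, so its reads do not report on the cells' own gene alone. MRTO4, a ribosome assembly factor, had 23.5 ± 0.589 CPM in the controls and 27.8 ± 0.746 CPM in miR-155OE (0.24, edgeR adjusted p = 0.0587, with the block 0.0287). DKC1, the pseudouridine synthase of nucleolar particles, had 0.38 (SE 0.11, edgeR adjusted p = 0.0840, with the block 0.00395). With the block 6 of the 41 rose and 3 fell, against 7.43% and 5.17% of all tested genes. Of 6 repressed genes 0 rose and 1 fell, with 2 higher and 2 lower at an unadjusted p of 0.05. The 1 that fell was GADD45A, a stress-induced growth arrest gene, from 186 ± 5.86 to 144 ± 16.9 CPM (-0.37, SE 0.08, edgeR adjusted p = 0.0462). The cyclin-dependent kinase inhibitors CDKN2B and CDKN1B had 0.31 and -0.19 (edgeR adjusted p = 0.118 and 0.140, with the block 0.0238 and 0.0504). Of the 6 repressed genes, 1 rose and 1 fell under the block. By DESeq2, 2 genes of these lists rose and 2 fell, where it called 1200 of all genes in either direction.

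In the authors' deposited table, which comes from their own comparison of the same libraries, 50 of the 119 genes had an adjusted p under 0.05 with a higher value and 2 with a lower one, against 3.03% and 1.7% of the 25529 genes in that table. All 21 genes that rose or fell by edgeR were among those 52 genes of the authors' deposited table.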

How the data were processed

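RNA was sequenced in 8 libraries, 4 CTRL and 4 miR-155OE, from NEBNext Ultra libraries of total RNA per the labels. The authors' deposited counts are whole reads per Ensembl gene, per the file headers. Tools named in the submitters' processing notes are featureCounts 1.5.0-p3, HISAT2 2.0.5 and DESeq2, on GRCh38, with no strand setting or annotation release. The other deposited table gives, for each library, a normalised signal, and the log2 fold change and p-value (raw and adjusted) of the authors; only their calls were used.

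Counts were compared in R 4.3.3 with edgeR 4.0.16 (filterByExpr, TMM, quasi-likelihood F test on group, Benjamini-Hochberg over all 15135 genes, threshold 0.05). CPM uses TMM-scaled library sizes. SEs are the log2 fold change over the square root of F, and 95% intervals follow from them. For the comparison with the region, the median log2 ratio of the 119 genes in each library was added to the offset of those genes. The scripts were tested on simulated data. The counts of any pair of libraries in a group differed by more than sampling noise (chi-square over its degrees of freedom 14.4 to 74.8). Each was therefore kept as a separate library, which does not show separate cultures. In each group replicates 1 and 2 (14.4 in CTRL, 34.3 in miR-155OE) and replicates 3 and 4 (26.3 and 40.2) lay closest. What such replicates share was not tested. Depth limits precision for the rarest of the 119 genes, at a mean of 4.03 CPM.

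The labels number the libraries 1 to 4 without saying what a number shares. Deviations from the group means of same-numbered libraries correlated at 0.580, 0.499, 0.183 and 0.609 over 10148 genes. The highest correlations of CTRL replicates 1 to 4 with a miR-155OE library of another number were 0.272, 0.265, 0.201 and 0.399. For number 3 this exceeded the same-number value. Equal numbers were treated as pairs because each of their correlations was over 0.1, which these other correlations also passed. The pairing behind the blocked values is therefore an assumption, weakest for number 3. Blocked values stand beside many, but not all, of the results they change. Genes are not independent replicates.

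The 119 genes, the role lists, the MYC lists and the tests were chosen with earlier results of these data known. The genes described one by one are MYC, those called against the region, the 6 highest, the 6 lowest and the 6 of lowest p, the 3 most abundant per kb, the ends of each role list, the 3 of lowest p in each MYC list and the 5 most like MYC. Other genes are examples chosen after their values were seen. Alternatives were DESeq2 1.42.0, another scaling, no filter, the replicate block, TMM without chromosome 8, other read minimums and each library left out. Sequences of chromosome 8 are not shown.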

Additional observations from a re-analysis of the deposited data

Results flagged for a closer look

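Of 62 groups of 4 libraries looked at, 1 held a library far from the other 3. In CTRL, ZFP41 had 13.4 CPM in replicate 1, and the other libraries lay at 10.3, 10.7 and 10.8 CPM. The gap took up 0.848 of the range of the group, above Dixon's critical value for 4 samples, which chance alone passes in about 1 in 20 groups. Without CTRL replicate 1 the departure of ZFP41 from the region was -0.55 on the log2 scale (edgeR adjusted p = 0.0454), against -0.65 with it.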

How the results depend on the processing

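The median log2 fold change of the 119 genes stayed between 0.26 and 0.32 in all settings run, including read minimums of 300 (141 genes, 0.29) and 5000 (85 genes, 0.26), while the number of calls moved. Against 488 calls among all genes, DESeq2 made 1200, edgeR without a filter on low counts 927, and edgeR with the replicate block 1908; leaving out 1 library gave 125 to 1274. Of the 119 genes, 20 rose and 1 fell; DESeq2 had 50 and 2, no filter had 33 rise, the replicate block had 61 and 2, and leaving out 1 library gave 3 to 48 and 0 to 2. Against the region 3 were above and 3 below; without a filter 6 were above, the replicate block gave 12 and 13, and leaving out 1 library 2 to 9 and 1 to 8. In the MYC lists 0 rose and 2 fell, GADD45A and TERT, for which the line carries a transgene. DESeq2 had 2 rise, no filter 1 and the replicate block 8 rise and 4 fall. Leaving out 1 library gave 0 to 3 and 0 to 2. Leaving out 1 library moved the plain MYC log2 fold change from -0.025 to 0.269, negative without CTRL replicate 1 (-0.025) and without miR-155OE replicate 4 (-0.0089). The cause of these moves was not tested. The single-gene values relative to the region kept their side of the threshold in 79 comparisons and lost it in 12, in FZD6, MROH6 and ZFP41. The replicate block ended no call made without it among the 119 genes. Without the block, the interval of MYC was too wide to part a difference of the regional size from 0.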
